A study of Mus musculus with 2 samples.

Results

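CD8 T cells were identified in single-cell RNA libraries of the inflamed mouse colon by the transcripts each cell carried. A cell counted as a CD8 T cell when it held at least 1 UMI (unique molecular identifier, the tag that counts 1 captured RNA molecule) of Cd8a or Cd8b1 and at least 1 UMI of Cd3e, Cd3d, Cd3g, Trac or Trbc2, and held no UMI of Foxp3, Cd4, Trdc or Cd79a. The cells were thus selected on measured counts. A barcode needed 500 UMIs and 200 genes or more, and no more than 25% of its UMIs from mitochondrial genes. This gave 287 CD8 T cells of 17858 kept barcodes, 106 of 9734 in the library labelled Elf1 knockout and 181 of 8124 in the wild-type library. Because the rule reads these transcripts, their presence or absence in the cells is a property of the choice. The rule asks for Cd8a or Cd8b1 and does not fix which, and the values of the chains below are given as descriptions of these cells, with no test.

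The knockout label names Elf1, an ETS-family transcription factor expressed in lymphocytes, and the comparison asks how the cells of the inflamed colon differ between mice of this label and wild-type mice. Each library pooled colonic cells (proximal and distal colon and rectum) of 3 C57BL/6 mice aged 8 to 10 weeks, and the mice of both groups had received DSS (dextran sulfate sodium), which damages the lining of the colon and so brings on an experimental colitis. No group without DSS was analysed here, so every value describes inflamed tissue. There was 1 library per group with no map from cells to mice, hence no test between groups could be made, and the 95% intervals given in parentheses cover counting error only. The tissue was digested for 15 min at 37 °C, and the DSS dose, the days of treatment, the deleted part of Elf1 and the cell types that lack it are not given in the labels used here.

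CD8 T cells recognise peptides held by MHC class I molecules and kill the cell that presents them by releasing perforin and granzymes. Their CD8 co-receptor is either a CD8α/CD8β heterodimer, found on conventional cytotoxic T cells that arise in response to antigen, or a CD8α homodimer, found on many natural intraepithelial T cells of the gut. Intraepithelial T cells lodge between epithelial cells through the integrin αEβ7, whose α chain is encoded by Itgae and whose ligand is the epithelial E-cadherin.

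The library labelled knockout held 10012 barcodes and 39750319 UMIs and the wild-type library 8635 barcodes and 32481613 UMIs. The CD8 T cells held 341221 UMIs in the library labelled knockout and 467193 in the wild-type library, with medians of 1876.5 against 2021 UMIs and 877 against 926 genes per cell. The libraries shared 57 barcode sequences, none of them (0) among the CD8 T cells. RNA of other cell types was unequal between the libraries in the CD8 T cells themselves. The 4 neutrophil markers summed to 17.3 UMIs per CD8 T cell in the library labelled knockout and 0.215 in the wild-type library, the 3 erythroid markers to 67.2 against 0.934 and the 4 fibroblast markers to 8.60 against 0.757, all of these markers being detected. The 6 epithelial markers went the other way, at 0.0283 against 1.56 UMIs per cell, with Krt8, Car1, Muc2 and Fcgbp at 0 in the library labelled knockout. B cells carried the same imbalance, with 11.3 against 0.406 neutrophil and 0.180 against 2.84 epithelial UMIs per cell. For this reason a background bound is given for genes where it matters: the lowest mean UMIs per cell of that gene among B cells, fibroblasts, endothelial cells, macrophages and smooth muscle cells of the same library, an upper limit for RNA free in the suspension, provided that all cells take up equal amounts of it. Equal uptake was not tested. Conventional CD4 T cells labelled knockout held less of such RNA than CD8 T cells, at 2.23 neutrophil and 26.2 erythroid UMIs per cell.

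Elf1 itself (ENSMUSG00000036461, GRCm38 chromosome 14, 79481194 to 79582494, plus strand) was read in CD8 T cells of both libraries. It had 153 UMIs or 448 CPM (counts per 1e+06 UMIs of the CD8 T cells in that library; 380 to 525) in the library labelled knockout and 198 UMIs or 424 CPM (367 to 487) in the wild-type library, a ratio of 1.06 (0.851 to 1.31). At least 1 Elf1 UMI was seen in 60.4% of the CD8 T cells labelled knockout and in 53.6% of the wild-type ones. The counts are totals per gene and do not show where along Elf1 the UMIs were read. This level therefore checks nothing about a deletion of part of it, and every direction below follows the labels. With each cell thinned to 1000 UMIs the log2 ratio of Elf1 moved from 0.08 to 0.90.

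CD8 T cells made up 1.09% (0.892 to 1.32) of kept barcodes in the library labelled knockout and 2.23% (1.92 to 2.57) in the wild-type library, a ratio of shares of 0.489 (log2 -1.03). Among cells with a UMI of any of the 5 CD3 or T cell receptor genes and none of Cd79a, they were 9.27% (7.65 to 11.1) against 15.7% (13.7 to 18.0), a log2 ratio of -0.76. The rule sat close to the detection limit for many members. A single CD8 UMI carried 34 of the 106 cells labelled knockout and 52 of the 181 wild-type cells, while 72 and 129 cells had 2 or more. Just outside the rule lay 626 and 692 cells with a CD3 or receptor UMI but none of Cd8a, Cd8b1, Foxp3, Cd4, Trdc and Cd79a. Also outside were 17 and 46 cells with a CD8 UMI but none of the 5 CD3 or receptor genes. Of the cells with both a CD8 UMI and a UMI of these 5 genes, 4 labelled knockout and 15 wild-type cells were dropped for a Cd79a UMI, 4 and 9 for Trdc, 2 and 5 for Cd4 and 1 in each library for Foxp3.

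The remaining markers of the label, which the rule did not read, fitted a cytotoxic T cell. Ccl5, a chemokine that recruits T cells and monocytes, was detected in 89.6% of CD8 T cells labelled knockout and 72.4% of wild-type ones, against 23.8% and 8.97% of conventional CD4 T cells and 7.93% and 7.52% of B cells. Nkg7, a protein of cytotoxic granules, was detected in 84.0% against 79.0% of CD8 T cells, and in 0.425% against 0.831% of B cells. Gzma, the granzyme A gene, was found in 35.8% against 27.1% and Xcl1, the chemokine of XCR1-bearing dendritic cells, in 12.3% against 26.0%, each in under 1% of B cells. The natural killer cell marker Ncr1 had no UMI (0) in any CD8 T cell, which allows detection in at most 3.42% of cells in the library labelled knockout and 2.02% in the wild-type library. Klrb1c was detected in 0 of 106 against 8 of 181 CD8 T cells. Of the 6 markers of natural killer and innate lymphoid cells, 4 were detected in CD8 T cells labelled knockout and 5 in wild-type ones. The 6 summed to 0.594 against 0.359 UMIs per CD8 T cell and 0.286 against 0.503 per conventional CD4 T cell. The label therefore held against B cells and, by Ccl5, conventional CD4 T cells. A share rises with depth, however: at 1000 UMIs per cell Ccl5 was detected in 84.8% against 70.4% of CD8 T cells and 3.23% against 2.67% of B cells. The 6 markers separate γδ T cells (a Trdc UMI, no CD8 UMI) less well, at 5.92 against 16.9 UMIs per cell, beside 76.6 against 68.4 in CD8 T cells. Tcrg-C1 and Tcrg-C2 summed to 0.726 against 0.956 UMIs per CD8 T cell and 0.151 against 0.159 per conventional CD4 T cell. A γδ T cell with a CD8 UMI whose Trdc was not captured would pass the rule, and the part of such cells was not tested.

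**Figure D1:**
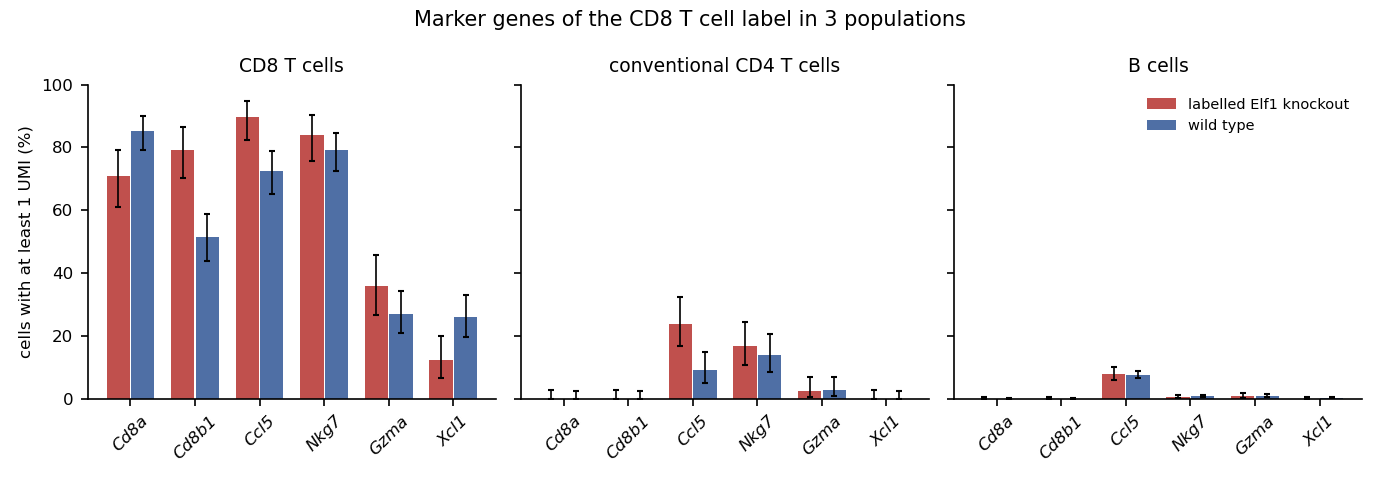
Share of cells with at least 1 UMI (y axis, %) of the 6 marker genes (x axis) in CD8 T cells, conventional CD4 T cells and B cells; bars stand for the library labelled Elf1 knockout (red) and the wild-type library (blue), and lines for exact 95% binomial intervals. Cd8a and Cd8b1 were used to choose the cells; Ccl5 was detected in 89.6% and 72.4% of CD8 T cells and in under 8% of B cells.

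The CD8 chain that was read in the cells is described here from the same UMIs that chose them. A Cd8a UMI without any Cd8b1 UMI was found in 22 of 106 cells labelled knockout, or 20.8% (13.5 to 29.7), and in 88 of 181 wild-type cells, or 48.6% (41.1 to 56.1), a ratio of 0.427 (0.255 to 0.687). Cells with a Cd8b1 UMI were 79.2% (70.3 to 86.5) of those labelled knockout and 51.4% (43.9 to 58.9) of the wild-type ones. Of all Cd8a and Cd8b1 UMIs, Cd8b1 gave 58.6% (53.8 to 63.3; 255 of 435) in the library labelled knockout and 41.4% (37.8 to 45.04; 302 of 730) in the wild-type library. Cd8a and Cd8b1 are neighbours on chromosome 6, at 71373427 to 71379173 and 71322788 to 71337494, both on the plus strand. A missing Cd8b1 UMI can be a molecule not captured, and the Cd8a-only cells labelled knockout were shallower, with a median of 1230.5 UMIs against 1872.5 in the wild-type ones. At a fixed 1000 UMIs per cell, which left out 7 cells labelled knockout and 12 wild-type cells, the shares of Cd8a-only cells were 20.2% and 43.8%, a ratio of 0.461 (0.267 to 0.764). As a share of all kept barcodes, Cd8a-only cells were 0.226% (0.142 to 0.342) in the library labelled knockout and 1.08% (0.870 to 1.33) in the wild-type library, 4.79-fold lower, whereas cells with Cd8b1 were 0.863% (0.689 to 1.07) against 1.14% (0.925 to 1.40), a ratio of 0.754 (0.554 to 1.02). Epithelial cells, taken as barcodes with at least 4 of the 6 epithelial markers, moved in the same direction, with 2 barcodes (0.0205%) in the library labelled knockout against 622 (7.66%) in the wild-type library. The part of this difference in recovered epithelium in the shares of CD8 T cells was not tested.

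**Figure D2:**
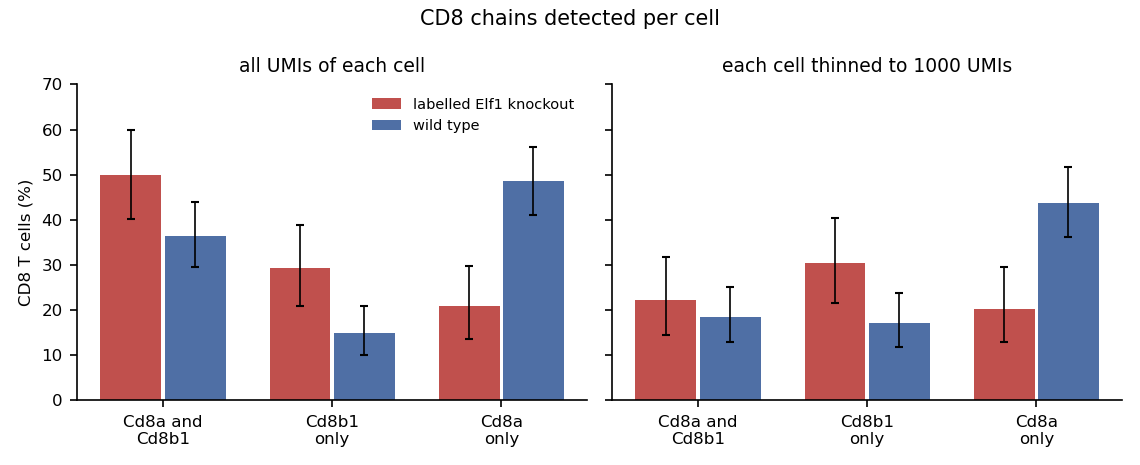
Share of CD8 T cells (y axis, %) with UMIs of both CD8 chains, of Cd8b1 only or of Cd8a only, with all UMIs (left) and with each cell thinned to 1000 UMIs (right); bars are the library labelled Elf1 knockout (red) and the wild-type library (blue) with exact 95% binomial intervals. Cd8a-only cells were 20.8% and 48.6% with all UMIs, and 20.2% and 43.8% after thinning.

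Within the wild-type library the Cd8a-only cells were set against the cells with Cd8b1 for all other genes. The Cd8a-only cells were shallower, with 184347 UMIs in 88 cells against 282846 UMIs in 93 cells with Cd8b1. Of 1469 genes with at least 50 UMIs in the wild-type CD8 T cells, 51 were at least 2-fold higher in Cd8a-only cells (3.47%) and 141 at least 2-fold lower (9.6%). The genes farthest on the higher side encode receptors and adaptors best known from natural killer cells. Fcer1g, the shared γ chain of Fc receptors, had 98 UMIs in wild-type Cd8a-only cells and 3 in wild-type Cd8b1 cells, 50.1-fold higher per UMI (16.7 to 247). Tyrobp, the adaptor DAP12, had 88 against 3 UMIs. The Ly49 receptors Klra6 and Klra7, which bind MHC class I, had 51 against 0 and 54 against 3 UMIs, so that Klra6 was seen in 24 of the 88 Cd8a-only cells and in none (0) of the 93 with Cd8b1, with a lower limit of the ratio of 20.5. Klra6 and Klra7 are close relatives in a gene cluster, and reads shared between such paralogs could be assigned to either. Klrd1 (CD94, the partner chain of NKG2 receptors) was 4.25-fold higher (3.07 to 5.95), Xcl1 3.92-fold (3.02 to 5.13), Cd7 3.11-fold (2.74 to 3.54) and Cd160, a receptor for the herpesvirus entry mediator, 2.63-fold (1.87 to 3.73). The sets overlapped in these genes, since Klrd1 was seen in 35.5% and Cd160 in 32.3% of wild-type Cd8b1 cells. Ikzf2, the transcription factor Helios, had 34 UMIs in 22 wild-type Cd8a-only cells and 1 UMI in the Cd8b1 cells. Receptors and adaptors of this kind, together with Helios, are known from natural CD8αα intraepithelial T cells of the mouse gut.

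Genes on the lower side in wild-type Cd8a-only cells are given here as examples, picked after their values were seen. Among surface molecules of conventional T cells the ratio was below 1 for Cd28, the co-stimulatory receptor, at a ratio of 0.438 (0.235 to 0.775), Cd5 at 0.474 (0.258 to 0.829), Thy1 at 0.452 (0.334 to 0.604), Cd2 at 0.531 (0.355 to 0.778) and Cd6 at 0.170 (0.0753 to 0.340). Gzmk, a granzyme of memory-type CD8 T cells, had 19 UMIs in Cd8a-only against 178 in Cd8b1 cells, and Klrg1, an inhibitory receptor of short-lived effector cells, 4 against 60. Pclaf and Stmn1, genes known from dividing cells, had no UMI (0) in the 88 wild-type Cd8a-only cells. In the 93 cells with Cd8b1 they had 115 and 53 UMIs (upper bounds of the ratio 0.050 and 0.111), and Mki67 had 6 against 99. T cell receptor β constant transcripts, of which the rule read Trbc2, were seen in 87 of 88 Cd8a-only and 89 of 93 Cd8b1 wild-type cells, and Trac, also read by the rule, in 60 of 88 against 80 of 93. Constant genes of the γ chain were higher in Cd8a-only cells, Tcrg-C4 with 38 against 14 UMIs, 4.16-fold (2.21 to 8.32), and Tcrg-C2 with 91 against 49, 2.85-fold (1.99 to 4.12). Trdc, the δ constant gene, is absent from all members by the rule.

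The library labelled knockout had 22 Cd8a-only cells, in which these genes were unequally represented. These 22 Cd8a-only cells held 4 Fcer1g UMIs, 5 Tyrobp, 1 Klra6, 2 Ikzf2 and no Itgae UMI (0), against 98, 88, 51, 34 and 71 UMIs in the 88 wild-type Cd8a-only cells. The 22 cells held 43602 UMIs in all and the 88 cells 184347. Scaled to these totals, the ratios were 0.173 (0.0461 to 0.456) for Fcer1g, 0.240 (0.0761 to 0.582) for Tyrobp and 0.0829 (0.00206 to 0.483) for Klra6. Klra7 had 5 against 54 UMIs, a ratio of 0.391 (0.122 to 0.971), and Klrd1 24 against 144, a ratio of 0.705 (0.437 to 1.09) whose interval includes 1. All 5 Tyrobp UMIs of these cells labelled knockout lay in 1 cell, and so did all 5 Klra7 UMIs. The intervals do not cover such spread between cells. Of the receptor genes that the rule read in part, a β constant UMI was seen in 17 of these 22 cells and a Trac UMI in 9, against 78 and 67 of the 84 cells with Cd8b1 labelled knockout. The Cd8b1 cells labelled knockout held 42 Fcer1g and 39 Tyrobp UMIs against 3 and 3 in wild-type Cd8b1 cells, but 1 cell gave 43.5% of all Fcer1g UMIs of CD8 T cells labelled knockout, and macrophages, which also express both adaptors, had markers summing to 0.962 against 0.105 UMIs per CD8 T cell. Their part was not tested. At least 2 of 8 genes (Itgae, Xcl1, Cd160, Ikzf2, Fcer1g, Tyrobp, Klra6 and Klra7, a set chosen after these values were seen) were detected in 18.9% (11.9 to 27.6) of CD8 T cells labelled knockout and 35.9% (28.9 to 43.4) of wild-type ones, and in 7.07% against 25.4% at 1000 UMIs per cell.

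**Figure D3:**
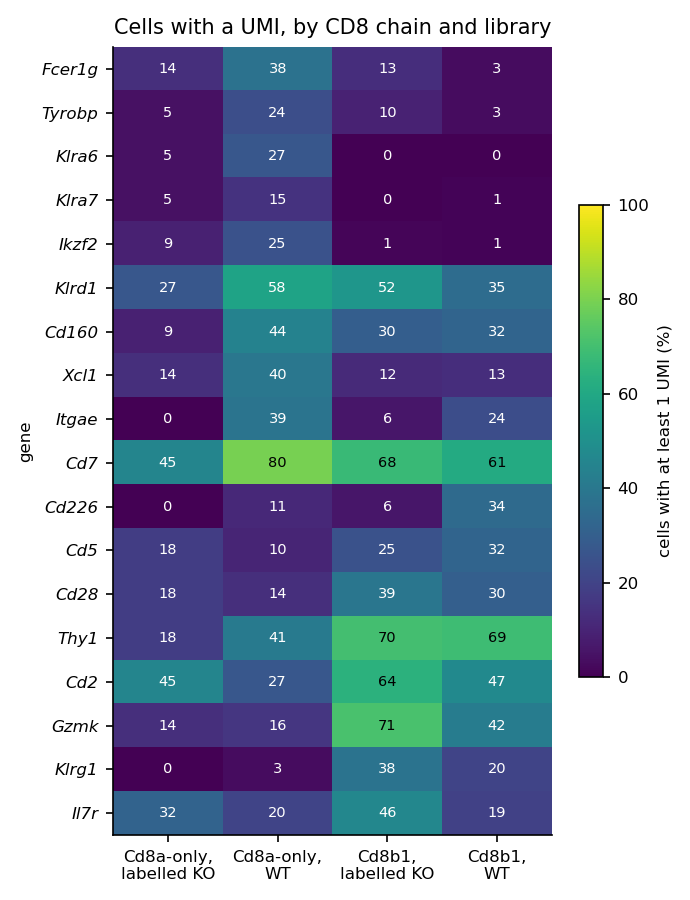
Percent of cells with at least 1 UMI (colour and printed value) of 18 genes (rows) in Cd8a-only and Cd8b1 cells of the library labelled Elf1 knockout and the wild-type library (columns; 22, 88, 84 and 93 cells in that order). Fcer1g, Klra6, Ikzf2 and Itgae were seen in 13.6%, 4.55%, 9.09% and 0% of Cd8a-only cells labelled knockout and in 37.5%, 27.3%, 25% and 38.6% of wild-type ones.

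Across all CD8 T cells, 2584 genes had at least 50 UMIs in both libraries together, of which 123 were at least 2-fold higher in the library labelled knockout (4.76%) and 114 at least 2-fold lower (4.41%), with a median log2 ratio of -0.02. Of these genes 734 stood at 3 times the background bound or more in the library where they were higher, and among them 45 were at least 2-fold higher (6.13%) and 62 at least 2-fold lower (8.45%). Among cells with a Cd8b1 UMI, 1896 genes had at least 50 UMIs, of which 80 were at least 2-fold higher (4.22%) and 53 at least 2-fold lower (2.8%).

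Itgae, the integrin αE chain (chromosome 11, 73090583 to 73147446, plus strand), had 8 UMIs in 5 of 106 CD8 T cells labelled knockout and 135 UMIs in 56 of 181 wild-type cells. This was 23.4 against 289 CPM, 12.3-fold lower (6.08 to 29.1). The gene stood at 238 times the background bound in the wild-type library and was seen in 0.142% against 0.656% of B cells. Restricting the comparison to cells with Cd8b1 left it at 8 against 64 UMIs, 8.42-fold lower. In conventional CD4 T cells, which hold little of it, Itgae had 7 against 23 UMIs.

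Xcl1 (chromosome 1, 164931644 to 164935527, minus strand) had 32 UMIs in 13 cells labelled knockout and 288 UMIs in 47 wild-type cells, or 93.8 (64.1 to 132) against 616 (547 to 692) CPM, 6.57-fold lower (4.55 to 9.79). The gene had no UMI (0) in conventional CD4 T cells of either library. Most of its UMIs came from few cells: the top 10% of cells gave 93.8% of them in the library labelled knockout and 82.6% in the wild-type library. Among cells with Cd8b1 it stood at 22 against 81 UMIs, a ratio of 0.258 (0.153 to 0.418).

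Cd226, the activating receptor DNAM-1 (chromosome 18, 89176967 to 89272229, plus strand), had 8 UMIs against 60, 5.48-fold lower (2.61 to 13.3), and Cd96, which binds the same ligand family, had 19 against 94, 3.61-fold lower. Unlike Itgae and Xcl1, Cd226 belonged to the Cd8b1 cells, where it had 8 UMIs in 5 of 84 cells labelled knockout and 50 UMIs in 32 of 93 wild-type cells, a ratio of 0.152 (0.0623 to 0.323). In conventional CD4 T cells Cd226 had only 9 against 8 UMIs, a ratio of 1.07 with a wide interval (0.366 to 3.18). Other genes at the low end were Klra6 with 1 against 51 UMIs, Dtx1, a regulator of Notch signalling, with 3 against 49, the lysophospholipid receptor gene Gpr55 with 4 against 47, the protease inhibitor gene Spint2 with 3 against 49 and the α-actinin gene Actn2 with 8 against 61. The lowest 14 also held the spectrin gene Sptan1 with 7 against 46 UMIs, Mfsd10 with 7 against 44 and Ccdc117 with 8 against 50. Sptan1 and Mfsd10 stood at 1.92 and 2.53 times the background bound in the wild-type library, and Spint2 was seen in 2.83% against 13.3% of CD8 T cells and 14.9% against 13.0% of B cells.

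Hspa1b and Hspa1a, the stress-inducible HSP70 genes, were both among the 14 lowest. Hspa1b had 8 UMIs in CD8 T cells labelled knockout and 568 in wild-type ones, 51.9-fold lower (26.1 to 121), and Hspa1a had 41 against 1050, 18.7-fold lower (13.7 to 26.2). The 2 genes are near-identical copies on chromosome 17, so the division of UMIs between them is uncertain. Low values were seen in other populations too: Hspa1b was detected in 5.66% against 65.7% of CD8 T cells, 10.3% against 60% of conventional CD4 T cells and 5.95% against 60.3% of B cells, and in the wild-type library it stood at 2.71 times the background bound and Hspa1a at 1.21 times. Of 17 heat shock chaperone genes with at least 50 UMIs, 9 were at least 2-fold lower and none (0) higher. Over all genes the shares were 4.41% lower and 4.76% higher. The median log2 ratio of the list was -1.08 against -0.02 over all genes. Dnajb1, an HSP40 co-chaperone, had 65 against 431 UMIs, Hsph1 had 25 against 135 and the constitutive Hspa8 had 890 against 2421, while Hspb1 and Stip1 had ratios of 1.16 and 1.25. In conventional CD4 T cells the list had a median of -0.95, over the 15 members with at least 50 UMIs there. Heat shock genes are known to respond to tissue handling, and whether handling differed between the libraries was not tested.

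Of the 14 highest ratios 13 belonged to genes at 0.476 to 3.29 times the background bound in the library labelled knockout. Gpx3, an extracellular glutathione peroxidase, had 187 UMIs against 14 and was detected in 22.6% against 4.97% of CD8 T cells, but also in 29.3% against 7.17% of B cells. Lcn2, the neutrophil and epithelial lipocalin, had 151 against 12 UMIs with 28.5% against 2.23% of B cells, and Ifitm1 had 309 against 31 UMIs with 42.6% against 16.5% of B cells. The basement membrane collagen gene Col4a2, the stromal Igfbp7, Anxa1, Cebpd, Sod2, Cd63, Ifitm2, Gja1, Lgmn and the iron store Fth1 were also among the 14, and Col4a2 was seen in 18.9% against 4.42% of CD8 T cells and 17.1% against 6.21% of B cells. Igfbp7 was at 3.29 times its background bound in the library labelled knockout, though 43.6% of B cells there held it. The metallothionein genes Mt1, with 1334 against 199 UMIs, and Mt2, with 473 against 31, were also high, and no member of the metallothionein and iron list (0 of 4 with at least 50 UMIs) reached 3 times the bound. Fth1 had 1954 against 699 UMIs in CD8 T cells and a ratio of 2.90 in conventional CD4 T cells, against 3.83 in CD8 T cells. The neutrophil marker S100a8 was detected in similar shares of CD8 T cells (62.3% against 11.05%) and B cells (65.4% against 7.83%). The amounts differed between populations. In the library labelled knockout the 4 neutrophil markers summed to 17.3 UMIs per CD8 T cell, 11.3 per B cell and 2.23 per conventional CD4 T cell. The part of neutrophil RNA in these ratios was not tested.

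**Figure D4:**
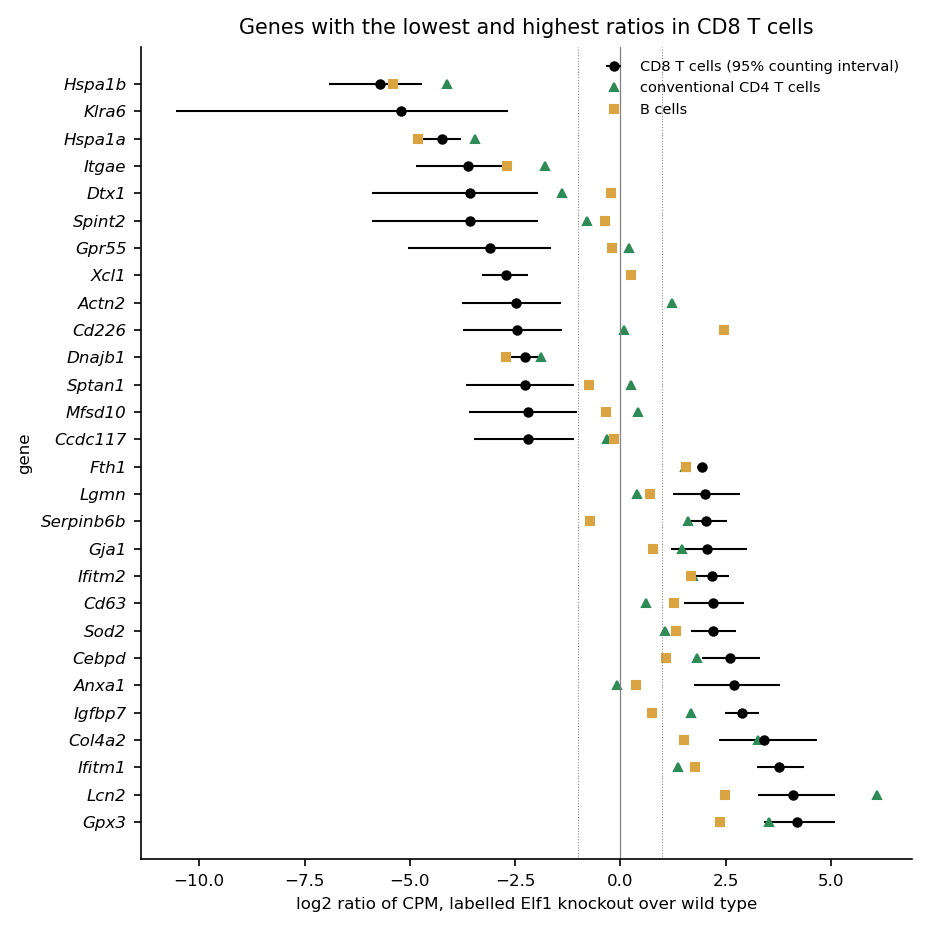
Log2 ratio of CPM, labelled Elf1 knockout over wild type (x axis), of the 14 lowest and 14 highest genes in CD8 T cells (rows), with 95% counting intervals as black lines; green triangles show the same ratio in conventional CD4 T cells and yellow squares in B cells, where a ratio could be had. Hspa1b, Hspa1a and Dnajb1 lie on the same side in all 3 populations. Cd226 at -2.45 in CD8 T cells stands beside 0.09 in CD4 T cells, the latter from only 9 against 8 UMIs.

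The exception was Serpinb6b, an intracellular inhibitor of serine proteases of the granzyme-inhibitor family (chromosome 13, 32965209 to 32979067, plus strand). It had 150 UMIs in 42 of 106 CD8 T cells labelled knockout and 50 UMIs in 29 of 181 wild-type cells, or 440 against 107 CPM, a ratio of 4.11 (2.96 to 5.78). It stood at 87.0 and 28.4 times the background bound, and 1.56% against 2.19% of B cells held it. The share of cells with a UMI at 1000 UMIs per cell was 28.3% against 5.33%, and in cells with Cd8b1 the ratio was 3.21 (2.24 to 4.69). Conventional CD4 T cells had a ratio of 3.03, with 83 against 26 UMIs.

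Beyond it, genes at 3 times the background bound with higher values in the library labelled knockout included Il7r and Klrg1 (these genes were picked out after their values were seen). Il7r, the interleukin-7 receptor α chain that sustains memory T cells (chromosome 15, 9505788 to 9530176, minus strand), had 105 UMIs in 43.4% of cells labelled knockout and 52 UMIs in 19.9% of wild-type cells, a ratio of 2.76 (1.96 to 3.93). Klrg1 (chromosome 6, 122270596 to 122282882, minus strand) had 126 UMIs in 30.2% of cells against 64 UMIs in 12.2%, a ratio of 2.70 (1.98 to 3.70). Both stood higher among the Cd8b1 cells alone as well, Il7r with 93 against 26 UMIs at a ratio of 3.40 (2.18 to 5.47) and Klrg1 with 126 against 60 at 2.00 (1.46 to 2.76). The cysteine protease inhibitor gene Ctla2a had 209 against 104 UMIs, Serpina3g 101 against 49, the glutaredoxin gene Glrx 71 against 39 and the Myc antagonist Mxd1 56 against 33. These genes were higher in B cells of that library too, at B cell ratios of 8.57 (5.67 to 13.3) for Ctla2a, 2.21 for Serpina3g, 1.65 for Glrx and 1.74 for Mxd1, and Il7r had a B cell ratio of 4.43 (2.23 to 9.08) from 24 against 15 UMIs. Il7r was likewise higher in conventional CD4 T cells, at a ratio of 1.71, whereas Klrg1 had a ratio of 0.152 there.

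Genes of the killing machinery went both ways between the libraries. Of 14 cytotoxic effector genes with at least 50 UMIs, 2 were at least 2-fold higher in the library labelled knockout and none (0) lower, beside 4.76% and 4.41% of all genes, and the median log2 ratio of -0.01 became -0.34 with cells thinned to 1000 UMIs. Ccl5, the most abundant effector transcript, had 18906 against 19452 CPM, a ratio of 0.972 (0.941 to 1.00), and Gzmb, granzyme B, 1468 against 1357 CPM, a ratio of 1.08 (0.960 to 1.22). Gzmb was nevertheless found in 60.4% of cells labelled knockout and 36.5% of wild-type cells, and in 53.5% against 33.7% at 1000 UMIs per cell. Gzma had 546 against 1241 UMIs, a ratio of 0.602 (0.544 to 0.667), with 79.7% and 83.0% of its UMIs in the top 10% of cells. Of the wild-type Gzma UMIs 771 lay in Cd8a-only cells, of those labelled knockout 6, and within Cd8b1 cells Gzma stood at 540 against 470 UMIs, a ratio of 1.09 (0.963 to 1.24). Gzmk had 260 UMIs in 59.4% of cells labelled knockout and 197 UMIs in 29.3% of wild-type cells, a ratio of 1.81 (1.496 to 2.19), which was 1.36 (1.12 to 1.66) among Cd8b1 cells. Prf1, perforin, had only 31 against 21 UMIs, a ratio of 2.02 (1.12 to 3.70). Ctsw, a cathepsin of cytotoxic cells, went the other way with 136 against 359 UMIs, a ratio of 0.519 (0.423 to 0.634), and Cst7, an inhibitor of cathepsins, had a log2 ratio of -0.99.

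Other chemokines and interferon-γ had ratios closer to 1 than Xcl1. Of 5 chemokine genes with at least 50 UMIs, Xcl1 alone passed 2-fold, beside 4.76% of all genes higher and 4.41% lower. Ccl4, an inflammatory chemokine, had 1078 UMIs in 71.7% of cells labelled knockout and 1821 UMIs in 50.3% of wild-type cells, a ratio of 0.811 (0.751 to 0.874), and Ccl3 had 133 against 234. Ifng, interferon-γ, had 115 UMIs in 26.4% of cells against 211 UMIs in 31.5%, a ratio of 0.746 (0.589 to 0.941). Cxcl10, an interferon-induced chemokine, had a log2 ratio of 0.41.

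Genes of tissue residency included several with low ratios. Of 13 with at least 50 UMIs, none (0) was at least 2-fold higher in the library labelled knockout and 4 were at least 2-fold lower, Itgae, Itga1, Rgs1 and Cd160, beside 4.76% and 4.41% of all genes. The median log2 ratio was -0.33 against -0.02 over all genes. In conventional CD4 T cells the median was 0.13, but over only the 8 members with at least 50 UMIs there. Itgae was not among these 8, and its ratio in conventional CD4 T cells was 0.289 (0.105 to 0.695). Itga1, the α1 integrin that binds collagen, had 13 against 54 UMIs, and Rgs1, a brake on chemokine receptor signalling, had 425 against 1524, a ratio of 0.382 (0.342 to 0.425). Cd69, which retains T cells in tissue, had 366 against 926 UMIs, a ratio of 0.541 (0.478 to 0.611). Within Cd8b1 cells Rgs1 was at 0.508, Cd69 at 0.572 and Cd160 at 0.747, while Itgb7, the partner chain of αE, had a ratio of 0.797 over all CD8 T cells. The transcription factors Runx3 and Prdm1, which drive residency, had ratios of 0.899 (0.594 to 1.35) and 1.52 (0.880 to 2.62), and Bhlhe40, a transcription factor of resident T cells, had a log2 ratio of 0.57.

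The 9 natural killer receptor genes with at least 50 UMIs had a median log2 ratio of -0.60, with 1 at least 2-fold higher (Klrg1) and 2 at least 2-fold lower (Cd7 and Klra7), beside 4.76% and 4.41% of all genes. The direction did not hold in Cd8b1 cells, where the median was 0.58, with Klrd1 at 106 against 52 UMIs, a ratio of 1.94 (1.38 to 2.75). Cd7, an early T and intraepithelial cell antigen, had 289 against 1106 UMIs over all CD8 T cells, a ratio of 0.358 (0.313 to 0.408), and 0.651 among Cd8b1 cells. Klrc1, an NKG2 chain, had a log2 ratio of 0.38.

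Genes of naive and circulating T cells had a median log2 ratio of -0.19, which became 0.48 with cells thinned to 1000 UMIs, so the direction of the list did not hold. Of 10 with at least 50 UMIs, 3 were at least 2-fold lower, Dapl1, Tcf7 and Ccr7, and 1 was higher, Il7r, beside 4.41% and 4.76% of all genes. Tcf7, the transcription factor TCF-1 of naive and stem-like T cells, had 39 against 121 UMIs, a ratio of 0.441 (0.299 to 0.638), and Ccr7, the lymph node homing receptor, had 32 against 93, a ratio of 0.471 (0.305 to 0.711). Klf2, the factor that keeps T cells circulating and the list's gene with the most UMIs, had a log2 ratio of -0.01 and Igfbp4 one of 0.42.

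The list of the T cell receptor complex and its signalling holds the 5 genes that the rule read, so its count is a description from which nothing is read. Of 27 with at least 50 UMIs, 20 had a ratio below 1 and 3 were at least 2-fold lower (Cd226, Cd96 and Ptpn6), beside 4.41% of all genes, with a median log2 ratio of -0.26, and in conventional CD4 T cells the median was -0.61. Ptpn6, the phosphatase SHP-1, had 15 against 65 UMIs. Cd3g, a signalling chain that the rule also read, had 187 against 503 UMIs, a ratio of 0.509, and Lck, the kinase bound to the CD8 tail, 206 against 351, a ratio of 0.804 (0.673 to 0.957). Lat, the adaptor below the receptor, had a ratio of 0.986 (0.822 to 1.18), and Cd2 and Cd28 had ratios of 1.32 and 1.37. The adaptors Sh2d1a and Sh2d2a had the highest log2 ratios of the list, 0.54 and 0.45.

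Type I interferon response genes had a median log2 ratio of -0.65 over 13 genes with at least 50 UMIs, of which 4 were at least 2-fold lower and 1, Ifitm3, at least 2-fold higher, beside 4.41% and 4.76% of all genes. Isg15, a ubiquitin-like interferon effector, had 30 UMIs in 16.04% of cells against 104 in 27.1%, a ratio of 0.395, Isg20 had 13 against 49, Irf7 10 against 40 and Bst2 21 against 64. Ifitm3, with 244 against 113 UMIs, lay at 1.13 times its background bound in the library labelled knockout. Thinning the cells to 1000 UMIs moved the median to 0.018, and it was 0.015 without cells holding 2 markers of another type (neutrophil and erythroid markers not counted), so the direction of the list did not hold. Ly6e, the list's gene with the most UMIs, had a log2 ratio of -0.12 and Slfn2 one of 0.52.

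Cell cycle genes lay near the level of all genes. Of 27 cell cycle genes with at least 50 UMIs none (0) passed 2-fold in either direction, with a median log2 ratio of 0.09. With 4.76% of all genes higher and 4.41% lower, this count is near the background and is no result about the list. Mki67, the proliferation antigen, had 75 UMIs in 17.0% of cells labelled knockout and 105 UMIs in 11.6% of wild-type cells, a ratio of 0.978 (0.717 to 1.33). Cells with at least 3 of 10 mitotic genes were 12.3% (6.69 to 20.1) against 7.73% (4.29 to 12.6), at median depths of 8320 and 6886.5 UMIs. Mcm5 and Ube2c were the lowest of the list, at log2 ratios of -0.62 and -0.59, and Rrm1 and Mcm7 the highest, at 0.93 and 0.90.

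No gene (0) passed 2-fold among 18 MHC class I and peptide loading genes, 15 apoptosis and survival genes, 11 glycolysis and hypoxia genes, 6 checkpoint genes and 4 ETS factor genes. With 4.76% of all genes higher and 4.41% lower, counts of 0 or 1 in lists of this size are near the background and are no result about the lists. H2-D1, a classical MHC class I heavy chain, had a log2 ratio of -0.02, while the non-classical H2-T23 and H2-Q7 each had -0.85. Among apoptosis and survival genes Pmaip1, a pro-apoptotic BH3-only protein, had the lowest log2 ratio, -0.49. Hif1a, the hypoxia factor, had 0.99 and the glycolytic Pgk1 -0.73. Of the checkpoints Ctla4 had 0.49 and Lag3 -0.66, and of the ETS factors Ets1 had -0.25 and Fli1 -0.28. Of 37 oxidative phosphorylation genes 1 was lower (Atp5g2), of 30 cytoskeleton genes 1 was higher (Anxa1), of 27 AP-1 and immediate early genes 1 was lower (Atf3, a stress-induced factor), of 15 effector and memory regulators 1 was lower (Id3, an inhibitor of E proteins), of 6 chemokine receptors 1 was lower (Ccr7), of 8 cytokine receptors 1 was higher (Il7r) and of 15 glucocorticoid and quiescence genes 2 were higher (Il7r and Cdkn1a). The effector factors Eomes and Tbx21 had log2 ratios of 0.84 and 0.60, the homing receptors Cxcr4 and Cxcr3 0.57 and -0.40, the cytokine receptors Il21r and Tgfbr2 -0.77 and -0.61, and the adhesion receptor Cd44 0.94. Pdcd1, the checkpoint PD-1, had 22 UMIs in 14.2% of cells labelled knockout and 10 UMIs in 2.76% of wild-type cells, and 1 wild-type cell held 60% of the wild-type UMIs.

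**Figure D5:**
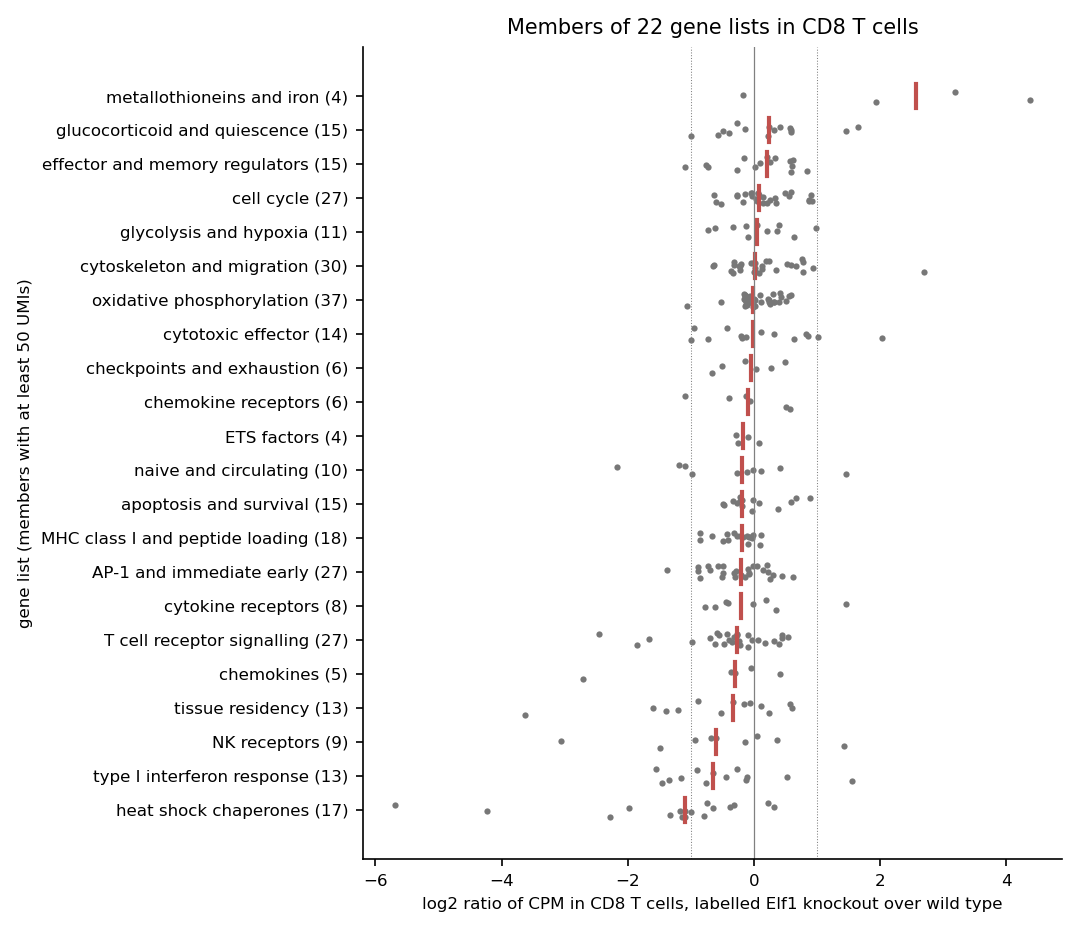
Log2 ratio of CPM in CD8 T cells, labelled Elf1 knockout over wild type (x axis), of each member with at least 50 UMIs (grey points) of 22 gene lists (rows, with the number of members), and the median of each list (red bar). Heat shock chaperones have the lowest median, at -1.08, and metallothioneins and iron the highest, at 2.57.

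Elf1 belongs to the ETS family, which reads a GGAA core, so the 250 bases before the RefSeq start (build GRCm38.p6) of 4 genes of differing behaviour are shown, 5′ to 3′ on the strand of the gene, with matches in capitals on either strand to the ETS core GGAAGT, the RUNX core TGTGGT and the heat shock element GAANNTTC. Xcl1 was lower and Il7r higher in the library labelled knockout, Gzmb stood even and Hspa1b was lower in CD8 T cells, conventional CD4 T cells and B cells.
Xcl1 (chr1:164935523-164935772, minus strand): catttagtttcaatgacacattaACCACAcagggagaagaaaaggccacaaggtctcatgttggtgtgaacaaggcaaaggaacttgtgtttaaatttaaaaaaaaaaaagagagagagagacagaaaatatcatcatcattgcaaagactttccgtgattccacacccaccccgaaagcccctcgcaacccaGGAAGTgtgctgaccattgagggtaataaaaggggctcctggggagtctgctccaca
Il7r (chr15:9529877-9530126, minus strand): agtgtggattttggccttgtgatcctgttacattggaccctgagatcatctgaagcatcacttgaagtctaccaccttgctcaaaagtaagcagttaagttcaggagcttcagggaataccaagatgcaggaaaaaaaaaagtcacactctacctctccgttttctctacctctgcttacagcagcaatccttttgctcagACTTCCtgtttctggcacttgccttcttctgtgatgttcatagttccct
Gzmb (chr14:56262335-56262584, minus strand): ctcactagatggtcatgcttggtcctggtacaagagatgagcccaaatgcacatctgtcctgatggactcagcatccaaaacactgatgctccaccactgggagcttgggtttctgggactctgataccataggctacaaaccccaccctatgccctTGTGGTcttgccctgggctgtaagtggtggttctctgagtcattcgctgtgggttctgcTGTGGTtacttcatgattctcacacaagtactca
Hspa1b (chr17:34959239-34959488, minus strand): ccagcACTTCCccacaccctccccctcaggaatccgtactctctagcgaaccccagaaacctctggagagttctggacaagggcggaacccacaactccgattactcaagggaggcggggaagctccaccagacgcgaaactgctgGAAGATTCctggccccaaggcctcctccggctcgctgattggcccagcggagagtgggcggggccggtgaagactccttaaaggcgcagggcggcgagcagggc
The ETS core was found 57 to 52 bases before the start of Xcl1 and 49 to 44 bases before that of Il7r, on opposite strands, the RUNX core at 2 places before Gzmb and 1 before Xcl1, and, before Hspa1b, the heat shock element at 104 to 97 bases and the ETS core at 245 to 240 bases. Such letters are common: over the first-listed windows of 27025 genes the ETS core was in 19.99%, the RUNX core in 14.2% and the heat shock element in 6.78%. Of the 14 lowest genes 11 had a window, of which 4 held the ETS core, and of the 14 highest 13 had a window, of which 3 held it. The 4 included Hspa1b and Hspa1a, whose windows differ at 3 of 250 bases and so are not separate cases. A match describes the letters and not a bound site.

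Set beside conventional CD4 T cells (126 cells labelled knockout and 145 wild-type cells, with Cd4 and a CD3 or receptor UMI and without Foxp3, CD8, Trdc, Cd79a and macrophage transcripts), the CD8 T cells had the profile of killer cells in both libraries. In the library labelled knockout 92 of 2310 genes were at least 2-fold higher in CD8 T cells (3.98%) and 119 lower (5.15%), and in the wild-type library 117 of 2628 were higher (4.45%) and 151 lower (5.75%). The rule for CD8 T cells excluded Cd4, and 2 libraries cannot give an exact permutation p under 0.5, so these are descriptions. Gzma was 43.8-fold higher in CD8 T cells labelled knockout (546 against 13 UMIs) and 44.9-fold higher in wild-type ones (1241 against 20). Ccl5 was 58.1-fold and 30.6-fold higher, Ly6c2, a memory and effector surface antigen, 86.7-fold and 33.1-fold, Klrd1 19.4-fold and 70.9-fold, and Nkg7 12.4-fold and 8.80-fold. Cd160, Jaml, Ccl4, Cd7, Xcl1, Tcrg-C2 and Ctsw completed the 12 genes with the highest ratios shared by both libraries.

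CD8 T cells had fewer UMIs of helper cytokines than conventional CD4 T cells. Il22, which acts on epithelial repair, had no UMI (0) in CD8 T cells against 507 in conventional CD4 T cells labelled knockout, and 1 against 223 in wild-type ones. Tnfrsf4, the OX40 receptor, had 2 against 458 UMIs in the library labelled knockout and 16 against 315 in the wild-type library, and Il17a had 6 against 198 and 0 against 23. Il10, a regulatory cytokine, had 14 against 102 UMIs in the library labelled knockout and 1 against 73 in the wild-type library. Cd40lg, the helper signal to B cells, had no UMI (0) in CD8 T cells labelled knockout against 28 in CD4 T cells, and 1 against 50 in the wild-type library. Innate lymphoid cells with Cd4 and a CD3 transcript would pass the same rule, and their part was not tested.

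Labelled knockout over wild type, conventional CD4 T cells had 145 of 2352 genes at least 2-fold higher (6.16%) and 95 lower (4.04%). The comparisons in CD8 and CD4 T cells come from the same pair of libraries. Side by side, Hspa1b, Hspa1a and Dnajb1 had ratios of 0.0193, 0.0535 and 0.206 in CD8 T cells and 0.0578, 0.0916 and 0.269 in CD4 T cells. Cd96 had ratios of 0.277 and 0.227. Gpr55 had 0.117 in CD8 T cells and 1.16 (0.437 to 3.17) in CD4 T cells, the latter from only 11 against 9 UMIs. Sptan1 had 0.208 in CD8 T cells and 1.19 (0.671 to 2.12) in CD4 T cells. The difference between the populations was not tested.

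T cell receptor β variable transcripts were too sparse to describe clones. A Trbv UMI was found in 18 of 106 CD8 T cells labelled knockout, or 17.0%, and in 18 of 181 wild-type cells, or 9.94%, over 11 Trbv genes in each. Trbv13-3 led in the library labelled knockout with 5 cells, followed by Trbv12-2 and Trbv13-1 with 3 each, and Trbv12-2 led in the wild-type library with 6 cells. Clones and mice cannot be told apart without a map from cells to mice.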

How the data were processed

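Both libraries were made on Singleron GEXSCOPE microchips and sequenced in paired ends on Illumina NovaSeq, per the labels' protocols. Tools named in the submitters' processing notes are featureCounts 2.0.1, STAR 2.6.1a and cutadapt 1.17, and the build is GRCm38. The authors deposited counts of UMIs for each barcode and gene, which were not normalized. Genes were compared where both files list them, 23197 genes, and coordinates came from GENCODE M21 for 28654 of 28695 gene identifiers.

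UMIs were summed over the CD8 T cells of each library and scaled to CPM. Intervals are exact at 95%: Poisson for a CPM, Clopper-Pearson for a share and conditional binomial for a ratio. For log2 ratios a UMI count of 0 was set to 3 where the count on the other side was over 3. With 1 library per group no p-value was computed. The interval method was tested on simulated totals drawn with the counting error that it assumes. That simulation held no spread between cells or mice and so cannot show that the intervals cover it. Doublets were left in, and leaving out the 5% of barcodes with the highest scrublet scores (scanpy 1.11.5) was an alternative. Conventional CD4 T cells with a UMI of C1qa, C1qb, Csf1r or Adgre1 were left out after leading genes had been seen. Named genes were the 14 lowest and 14 highest ratios with at least 50 UMIs, detection in 10% or more of the cells of either library, an interval excluding 1 and no cell with over 25% of the UMIs in the library where the gene is higher. Mitochondrial, ribosomal, haemoglobin, immunoglobulin, receptor variable and sex-linked genes, gene models, genes of the cell rule and markers of other cell types were left out. For CD8 over CD4 T cells, the 12 genes farthest from 1 in both libraries with at least 20 UMIs were taken. The cell rule, the 22 gene lists and these rules were chosen with earlier results of these data known. Tools were python 3.11.15, numpy 2.4.6, scipy 1.17.1, pandas 2.3.3 and matplotlib 3.10.9.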

Additional observations from a re-analysis of the deposited data

Results flagged for a closer look

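Actn2, which encodes the actin cross-linker α-actinin-2, had opposite directions in the 2 T cell populations. Its log2 ratio of labelled knockout over wild type was -2.48 in CD8 T cells, with 8 against 61 UMIs, and 1.23 in conventional CD4 T cells, with 37 against 15 UMIs. The difference between the populations was not tested.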

How the results depend on the processing

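No paired analysis was possible because each group has 1 library. The intervals cover counting error and not the spread between mice or between cells, and 106 and 181 cells limit what genes under about 50 UMIs can show. The causes of the changes below were not tested.

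The log2 ratio of CD8 T cell shares, -1.03, was -0.41 for cells with Cd8b1 and -1.71 without cells holding 2 markers of another type. Genes at least 2-fold higher and lower, 123 and 114, numbered 80 and 53 in Cd8b1 cells, 57 and 37 at 100 UMIs per gene, 371 and 420 at 20 UMIs, 43 and 36 after thinning, 45 and 52 without cells of 2 other markers, 52 and 68 when neutrophil and erythroid markers were not counted, and 45 and 62 at 3 times the background bound. A minimum of 2 CD8 UMIs gave 72 higher and the mean over cells 172 lower genes. Elf1 moved from 0.08 to 0.90 (thinning) and 0.45 (mean over cells). Thinning moved list medians to 0.054 (AP-1, from -0.20), -1.41 (NK receptors, from -0.60), 0.44 (cytokine receptors, from -0.21), -0.34 (cytotoxic, from -0.01), -0.49 (effector regulators, from 0.22), 0.48 (naive, from -0.19) and 0.018 (interferon, from -0.65). Cd8b1 cells gave 0.58 for NK receptors and -0.42 for chemokines (main -0.30). Without cells of 2 other markers, AP-1 was 0.048, NK receptors -1.58 and chemokines 0.096; not counting neutrophil and erythroid markers, heat shock was -1.35 and interferon 0.015. At 3 times the bound AP-1 was -0.49 and naive -0.97. The mean over cells gave 0.074 for AP-1 and 0.042 for chemokines, which were -0.56 without the 5% of cells with the most UMIs. Metallothioneins and iron, 2.57, ranged over 2.95 (the same cells left out), 2.31 (2 CD8 UMIs), 1.94 (20 UMIs), 2.39 (thinning), 2.05 and 1.87 (without cells of other markers), 1.98 (doublets) and 2.38 (mean over cells). Of 575 values of 48 named genes under these settings 563 kept their direction and 499 lay within the interval of the gene. The genes were picked from the same cells that the settings recut, so a kept direction is not separate support. The named gene Ppil1, at 1.18, turned to -0.81 after thinning and -0.00937 as a mean over cells. The settings that did not count neutrophil and erythroid markers, left out the deepest cells or used the bound were chosen after seeing the data.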
